A study of Mus musculus with 3 samples.

Results

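Collagen chains were followed as a gene family in renin-producing cells of the mouse kidney. A chain was taken as any probe set with 1 gene symbol made of Col, a number, the letter a and a number. The rule found 46 probe sets of 44 genes, out of 19938 genes measured. Col6a5 and Col6a6 had 2 probe sets each and every other chain had 1. The samples were YFP-positive cells, sorted from the digested kidney cortex of adult male Ren1c-YFP mice of unspecified strain. In these mice the renin gene's regulatory sequence marks renin cells with a yellow fluorescent protein. All animals drank captopril (0.5 mg/ml), which blocks angiotensin-converting enzyme, and ate low-salt chow for 2 weeks. There was 1 group of 3 arrays (replicates 2, 4 and 5), with no untreated or unsorted control analysed here, so the values are levels in these cells and not an effect of the treatment. The labels call the samples unpooled without tying each to its own mouse, and p-values therefore cover the spread between these 3 samples, which may be technical.

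Collagens are secreted or membrane-bound proteins in which 3 chains wind into a helix, and each chain has a gene of its own. Fibrillar collagens give tissues their tensile strength, type IV collagen forms the sheet of every basement membrane, and other classes decorate fibrils, anchor membranes or span the cell surface. In the kidney, type IV collagen carries the glomerular filter and encloses tubules and vessel wall cells, while type I and type III collagen lie in the interstitium and around arteries. Renin cells sit in the wall of the afferent arteriole and are related to smooth muscle, a cell type that lays down its own basement membrane.

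The deposited values are log2 signals. A level was called above background if limma's one-sided test on the 3 arrays passed at an adjusted p of 0.05 over all genes. The level used for each array, the 95th percentile of its signals over 1027 olfactory receptor genes, came to 6.20, 6.32 and 6.50 in replicates 2, 4 and 5. Height means a gene's log2 signal minus that level, so a height of 1 is a signal 2 times as strong as the level. Probe affinity also sets a signal, so heights do not rank the chains by abundance. Of 11 listed mural and renin cell markers 11 passed, with Acta2 (smooth muscle actin) at 12.62 ± 0.06, Rgs5 at 12.37 ± 0.10 and Myh11 (smooth muscle myosin) at 11.98 ± 0.36 (log2 signal, mean ± SD, n = 3 here and below). The renin transcript itself was not analysed here. Among markers of other cells, 11 of 11 proximal tubule genes, 11 of 12 loop and distal tubule genes and 5 of 7 parietal epithelium genes were above background, against 37.3% of all genes. For macrophage markers the count was 3 of 10 (30.0%), under the share of all genes. The proximal tubule list had a median height of 4.21, close to the 4.24 of the mural and renin cell list. For loop and distal tubule it was 2.79, and for parietal epithelium 1.04. The strongest tubule signals included Kap (13.09 ± 0.08), Slc27a2 (12.25 ± 0.15) and Umod (11.79 ± 0.57). The part of tubule RNA in the chain signals was not tested. In such bulk samples fewer cells of a type and less RNA per cell cannot be told apart.

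Most collagen chains lay close to the background level, and Col12a1 stood clear of it. Of 44 chains, 25 (56.8%) were above background, against 37.3% of all genes. Col12a1 had a height of 3.61 ± 0.09, and no other chain exceeded a height of 1.76. The mean height lay within 1 log2 unit of the level, on either side, for 34 of 44 chains (77.3%), against 51.0% of all genes. A height over 2 was reached by 1 chain (2.27%) and by 12.6% of all genes. The middle 50% of chains ran from 0.04 to 0.92, and the middle 50% of all genes from -0.93 to 1.03. The median height was 0.55 over the chains and -0.01 over all genes. In 30 chains every array lay over its own level (41.9% of all genes did so). In 5 chains every array lay under it, and the matching share of all genes was not counted.

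**Figure D1:**
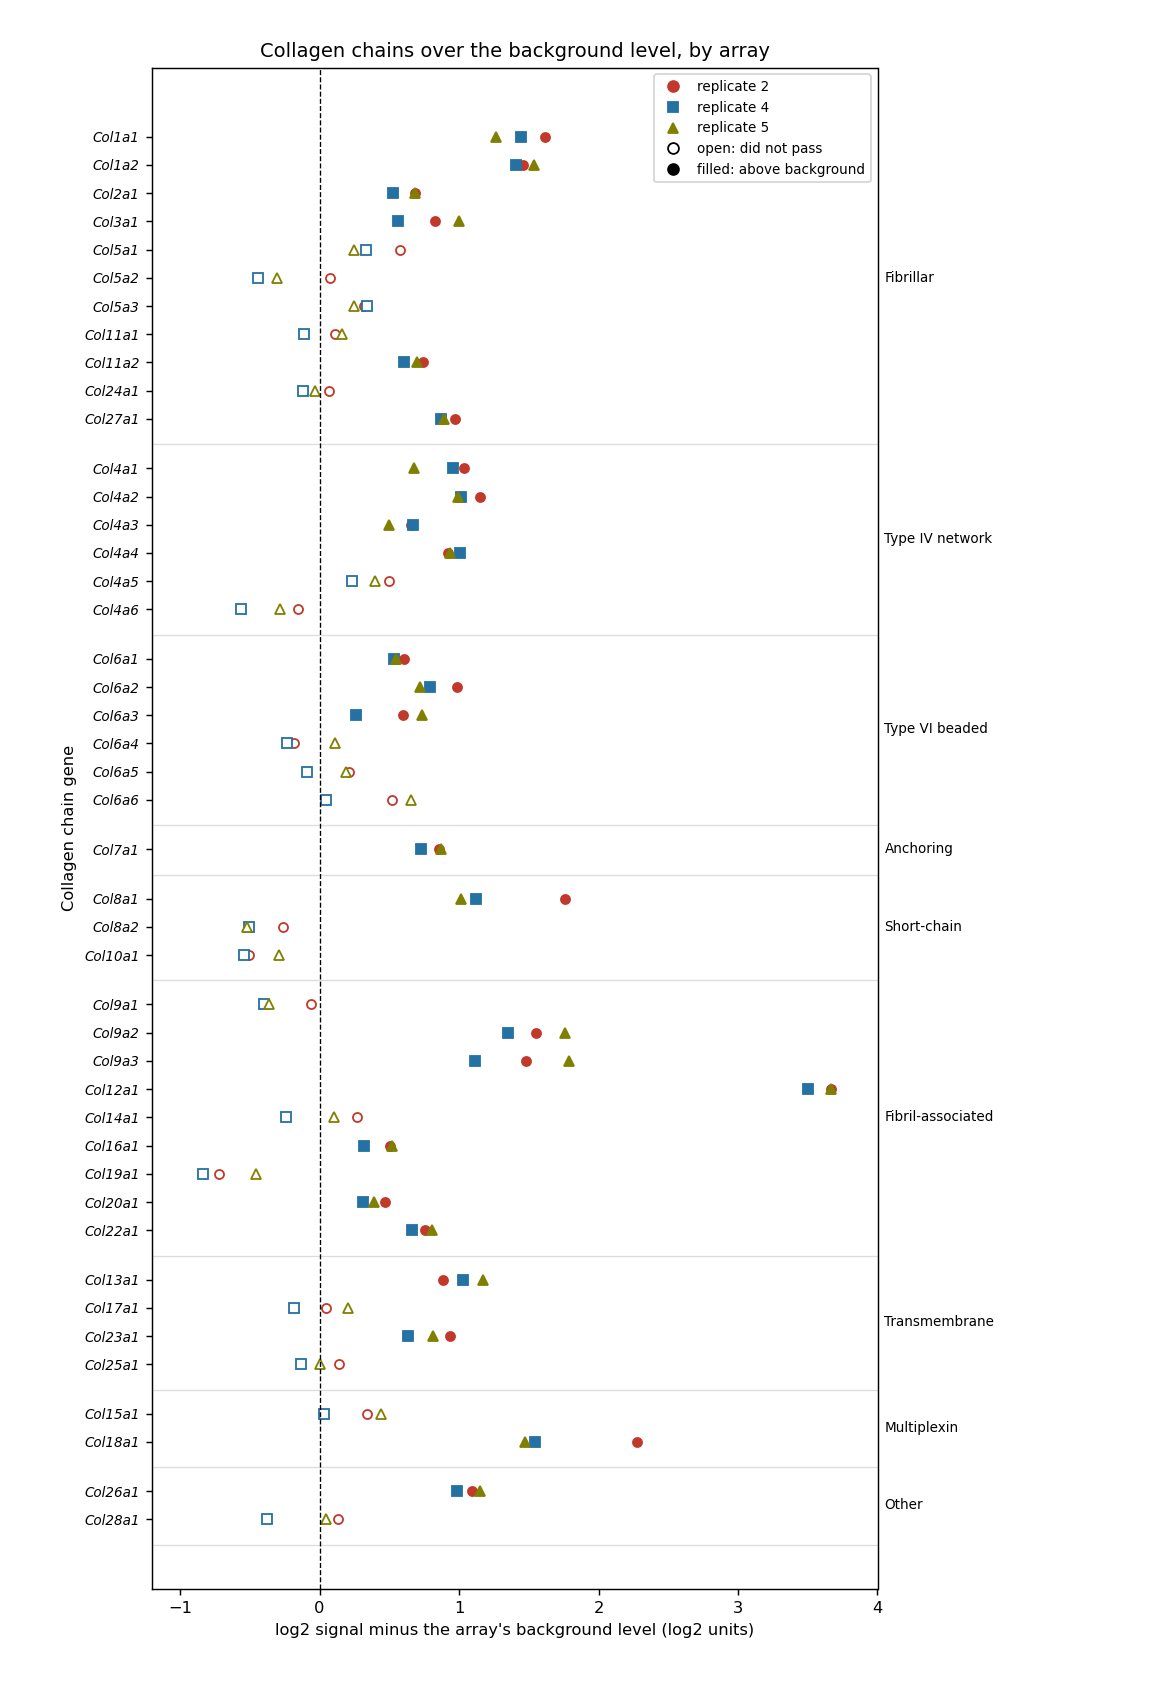
Log2 signal minus the array's background level (x axis, log2 units) for each of the 44 collagen chain genes (y axis, ordered by class), with 1 point per array. Filled points mark the 25 chains above background and open points the 19 that did not pass, and the dashed line is the background level. Col12a1 sits near 3.61, while 34 of the chains have means within 1 unit of the line.

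The chains called depended on the level taken as background. With the 99th percentile of olfactory receptor genes, 4 of 44 chains (9.09%) passed, against 16.6% of all genes. These were Col1a2, Col9a2, Col12a1 and Col18a1. With a level from 167 vomeronasal receptor genes, 43 chains (97.7%) passed, against 65.9% of all genes. With a level from 44 keratin-associated protein genes, no chain passed by limma, against 3.56% of all genes, and Col12a1, the 1 chain with an unadjusted p under 0.05 there, had a height of 1.28 (limma adjusted p = 0.107). The keratin-associated protein level was 8.41, 8.44 and 9.15 in replicates 2, 4 and 5. The share of chains was therefore above that of all genes at 2 of these levels and below it at the other 2. At the level used here, 22.7% of the keratin-associated protein genes (a hair family) were themselves called, and 1.20% of the vomeronasal receptor genes. Without replicate 2, 4 or 5, the count of chains was 20, 21 or 23, against 30.3%, 32.1% or 39.2% of all genes, and 20 of the 25 kept their call each time. The 5 that lost it without at least 1 array were Col4a3, Col6a1, Col6a3, Col16a1 and Col20a1.

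**Figure D2:**
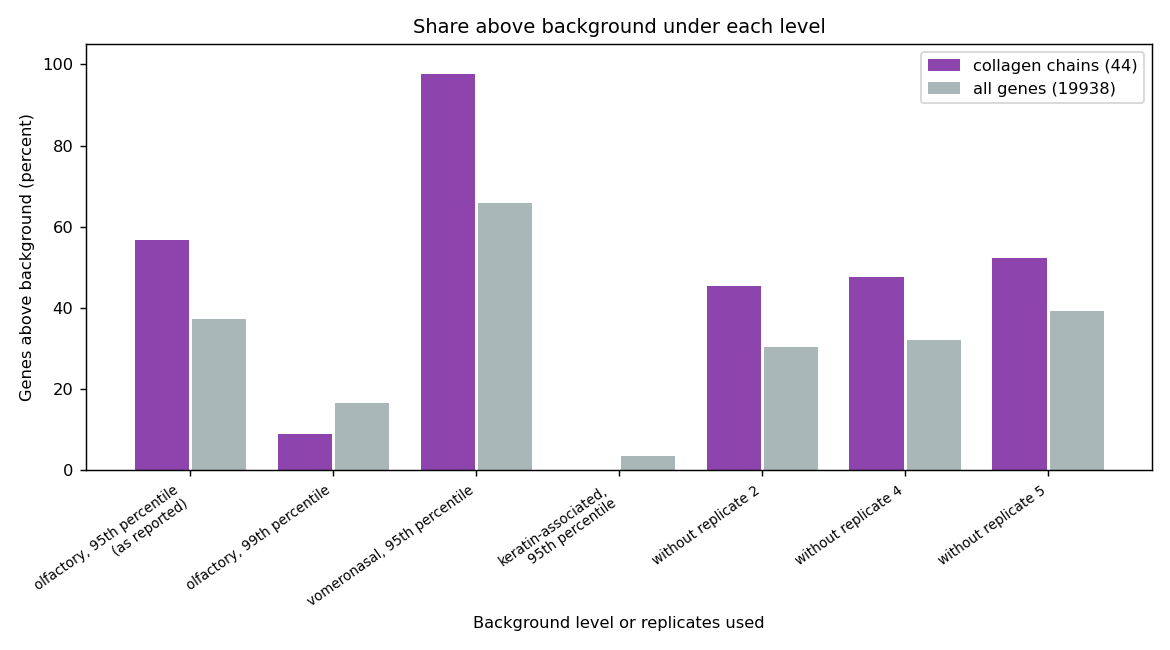
Percent of genes above background (y axis) under each background level or with 1 replicate left out (x axis). For each setting the left bar gives the 44 collagen chains and the right bar all 19938 genes. The share of chains exceeds that of all genes at the reported level (56.8% against 37.3%) and falls below it at the 99th percentile (9.09% against 16.6%).

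Type IV collagen, the network of basement membranes, was above background in 4 of its 6 chains, against 37.3% of all genes. Col4a1 and Col4a2 encode the chains found in nearly all basement membranes. Col4a1 had log2 signals of 7.24, 7.27 and 7.18 in replicates 2, 4 and 5 (height 0.89 ± 0.19, limma adjusted p = 0.00277). Col4a2 had 7.35, 7.33 and 7.50 (height 1.05 ± 0.08, adjusted p = 0.00119). Both chains were over the level on every array, and their arrays differed by 0.09 and 0.17. Col4a3 and Col4a4 encode chains of the mature glomerular filter, made there by podocytes together with the Col4a5 chain. Col4a3 stood at 6.86, 6.99 and 7.00 (height 0.61 ± 0.09, adjusted p = 0.00989), and Col4a4 at 7.12, 7.32 and 7.44 (height 0.95 ± 0.04, adjusted p = 0.0017). Their partner Col4a5 had signals of 6.70, 6.55 and 6.90, over the level on each array, and missed the threshold (height 0.38 ± 0.13, adjusted p = 0.0538). Col4a6, which pairs with the Col4a5 chain in other membranes, stood at 6.05, 5.76 and 6.22, under the level on each array. Of 8 measured podocyte markers 2 passed, Plce1 (8.00 ± 0.32) and Cdkn1c (7.76 ± 0.43). The slit diaphragm gene Nphs1 had signals of 6.41, 6.44 and 5.96. Loop and distal tubule markers passed in 11 of 12 cases. The part of podocyte or tubule RNA in the Col4a3 and Col4a4 signals was not tested.

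The type IV genes lie in pairs, head to head, which is known for this family, and the start regions of 2 pairs are shown, 1 called in both members and 1 in neither at the level used here. Col4a5 was close to the threshold and passed with eBayes without a trend (limma adjusted p = 0.0362), after quantile normalization (0.0437), with the mean of probe sets (0.0485) and at the vomeronasal receptor level (9.04e-05). The pair of Col4a3 and Col4a4, also called in both members, is not shown because the source used held no start region for Col4a3. Each window is 300 bases in RefSeq's GRCm38.p6 table, from 250 before to 50 after the transcript start, 5′ to 3′ on the gene's own strand. Capitals mark matches, on either strand, to the core letters of known promoter elements. These are CCAAT for the box of that name, then GGGCGG for the box bound by Sp1, and last TATAAA for the box that places the start. The windows are Col4a1 at chr8:11312777-11313076 (minus strand), Col4a2 at chr8:11312555-11312854 (plus strand), Col4a5 at chrX:141475169-141475468 (plus strand) and Col4a6 at chrX:141474027-141474326 (minus strand).
Col4a1: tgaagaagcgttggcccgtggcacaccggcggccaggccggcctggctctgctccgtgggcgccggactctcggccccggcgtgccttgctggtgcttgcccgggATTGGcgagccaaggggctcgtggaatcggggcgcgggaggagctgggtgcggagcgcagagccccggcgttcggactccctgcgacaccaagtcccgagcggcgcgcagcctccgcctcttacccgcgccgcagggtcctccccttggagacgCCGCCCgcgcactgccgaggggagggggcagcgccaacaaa
Col4a2: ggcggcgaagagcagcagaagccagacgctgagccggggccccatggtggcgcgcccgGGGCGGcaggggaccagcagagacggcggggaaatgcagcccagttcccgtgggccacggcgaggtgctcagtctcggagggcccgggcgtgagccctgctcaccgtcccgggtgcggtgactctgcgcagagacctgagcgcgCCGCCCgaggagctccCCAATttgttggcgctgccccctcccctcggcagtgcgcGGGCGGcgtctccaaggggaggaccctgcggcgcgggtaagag
Col4a5: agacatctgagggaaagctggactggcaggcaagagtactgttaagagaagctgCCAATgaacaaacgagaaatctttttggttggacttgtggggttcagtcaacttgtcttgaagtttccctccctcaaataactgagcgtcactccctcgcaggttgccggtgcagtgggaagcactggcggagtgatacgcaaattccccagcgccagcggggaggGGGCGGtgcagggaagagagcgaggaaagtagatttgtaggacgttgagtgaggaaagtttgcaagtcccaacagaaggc
Col4a6: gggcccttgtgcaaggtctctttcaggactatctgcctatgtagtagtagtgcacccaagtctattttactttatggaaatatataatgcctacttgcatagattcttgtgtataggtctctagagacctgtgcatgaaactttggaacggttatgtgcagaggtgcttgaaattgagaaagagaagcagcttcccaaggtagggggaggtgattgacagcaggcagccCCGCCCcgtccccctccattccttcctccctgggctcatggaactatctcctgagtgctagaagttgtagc
The starts of Col4a1 and Col4a2 lay 21 bases apart, each inside the other's transcript, so no gap separated them. Their windows shared 78 bases. The starts of Col4a5 and Col4a6 lay 1343 bases apart with a gap between the transcripts, and their windows shared none. The GGGCGG match 7 bases after the Col4a2 start is the same stretch, read on the other strand, as the CCGCCC match 9 bases after the Col4a1 start. The Col4a2 window held 3 such matches, and the Col4a1, Col4a5 and Col4a6 windows 1 each. CCAAT was matched once in the Col4a1, Col4a2 and Col4a5 windows, and TATAAA in none of the 4. The windows of Col4a1 and Col4a2 were 74.0% and 73.7% G or C, and those of Col4a5 and Col4a6 52.7% and 48.3%. Over the 38 windows of the 35 chains found in the table, 60.5% held GGGCGG, against 35.7% of all 32851 windows. Overlapping windows, such as those of Col4a1 and Col4a2, were counted separately, and windows were not matched for G or C content. CCAAT was in 34.2% of the collagen windows and 37.4% of all windows, and TATAAA in 13.2% and 13.6%. A match is a description of the letters and not evidence of binding.

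Among the fibrillar chains 6 of 11 were above background, against 37.3% of all genes. Col1a1 and Col1a2 encode the chains of type I collagen, the main collagen of most connective tissue. Col1a1 had log2 signals of 7.82, 7.76 and 7.77 in replicates 2, 4 and 5 (height 1.44 ± 0.17, limma adjusted p = 0.00041), and Col1a2 had 7.66, 7.73 and 8.04 (height 1.47 ± 0.06, adjusted p = 0.000334). Both stood at least 1 log2 unit over the level on every array. Col3a1, the type III chain of vessel walls and interstitium, had 7.03, 6.88 and 7.50 (height 0.80 ± 0.22, adjusted p = 0.00461). All 3 arrays were over the level, and replicate 5 gave the strongest Col3a1 signal. The fibrils that type I collagen forms are seeded by type V collagen, and none of its chains passed. Col5a1 had 6.78, 6.65 and 6.75 (height 0.39 ± 0.17, adjusted p = 0.0536), Col5a3 had 6.52, 6.66 and 6.75 (height 0.30 ± 0.05, adjusted p = 0.0915), and Col5a2 had 6.27, 5.88 and 6.20 (height -0.22 ± 0.27). Col5a1 lay over the level on each array but just missed the threshold, and it passed without replicate 5 (limma adjusted p = 0.0455).

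The other fibrillar chains, some of them known from cartilage, had mean heights within 1 log2 unit of the level, as did Col3a1. Col2a1, the chief fibrillar collagen of cartilage, had log2 signals of 6.88, 6.84 and 7.19 (height 0.63 ± 0.09, limma adjusted p = 0.00853). Col11a2 had 6.95, 6.92 and 7.20 (height 0.68 ± 0.07, adjusted p = 0.00622), while Col11a1, its usual partner in type XI collagen, had 6.32, 6.21 and 6.67 and did not pass (adjusted p = 0.735). Col27a1 had 7.17, 7.19 and 7.40 (height 0.91 ± 0.05, adjusted p = 0.00204), and Col24a1 6.27, 6.20 and 6.47 (adjusted p = 1). At the 99th percentile level Col2a1 and Col11a2 had heights of -0.23 and -0.18. Col27a1 had 0.05 there and did not pass, and Col3a1 had -0.07.

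The listed markers of fibroblasts, the usual makers of type I and type III collagen, were mostly under the level in these samples. Of 9 measured fibroblast markers that are not collagens 2 passed (22.2%, against 37.3% of all genes). These were S100a4 (9.59 ± 0.37) and Cd248 (9.23 ± 0.45), both also found in other cells. The fibroblast receptor gene Pdgfra had signals of 5.96, 5.99 and 6.30. Dcn (decorin) had 5.50, 5.67 and 4.71, and Lum (lumican) 4.00, 4.17 and 4.15, each under the level on all 3 arrays. The list's median signals were 5.96, 5.79 and 6.17 in replicates 2, 4 and 5. Dcn and Lum also belong to the list of matrix partners described below, in which Ogn (7.67 ± 0.58) and Aspn (7.54 ± 0.38) passed. The part of fibroblast or mesangial RNA in the Col1a1, Col1a2 and Col3a1 signals was not tested. Mesangial markers were above background in 6 of 7 cases (85.7%). The strongest were Igfbp5 (10.79 ± 0.60), Gata3 (8.68 ± 0.26) and Agtr1a (8.66 ± 0.32). Pdgfrb and Des, which also passed, are counted in the mural and renin cell list as well.

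Type VI collagen, a beaded filament around cells, was above background in 3 of its 6 chains, against 37.3% of all genes. The chains were not tested against each other. All 6 passed at the vomeronasal receptor level, and none at the 99th percentile level. Col6a1, Col6a2 and Col6a3, which assemble with each other, passed. Col6a1 had log2 signals of 6.81, 6.85 and 7.05 (height 0.56 ± 0.04, limma adjusted p = 0.0124), Col6a2 had 7.19, 7.11 and 7.23 (height 0.83 ± 0.14, adjusted p = 0.00317), and Col6a3 had 6.80, 6.58 and 7.24 (height 0.53 ± 0.24, adjusted p = 0.0223). Each was over the level on every array, but Col6a1 missed the threshold without replicate 2 or 4 (limma adjusted p = 0.0607 and 0.0734) and Col6a3 without replicate 2 or 5 (0.095 and 0.0605). Col6a4, Col6a5 and Col6a6 encode chains that can take the place of the Col6a3 chain, and did not pass. Col6a6 came nearest, with 6.72, 6.36 and 7.16 (height 0.41 ± 0.32, adjusted p = 0.0671). Its other probe set had 4.95, 4.82 and 5.33, so the 2 probe sets of Col6a6 disagreed. For Col6a5 the means of the 2 probe sets were 6.45 and 5.67, and for Col6a4 the mean was 6.24 ± 0.33.

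The fibril-associated collagens sit on the surface of fibrils and do not form fibrils themselves. Of these, 6 of 9 were above background, against 37.3% of all genes. Col12a1, known from tendon, ligament and other dense tissue, had log2 signals of 9.87, 9.82 and 10.17 in replicates 2, 4 and 5 (height 3.61 ± 0.09, limma adjusted p = 5.28e-06). The 3 arrays differed by 0.35, and the call held in every setting tried but the keratin-associated protein level. Col14a1, the chain most like it in build, had 6.47, 6.08 and 6.61 and did not pass (height 0.04 ± 0.26, adjusted p = 0.812). The type IX chains assemble as 1 trimer of 3 different chains in cartilage. Here Col9a2 had 7.75, 7.67 and 8.26 (height 1.55 ± 0.20, adjusted p = 0.000325), Col9a3 had 7.68, 7.43 and 8.29 (height 1.46 ± 0.34, adjusted p = 0.000581), and Col9a1 had 6.14, 5.92 and 6.14. The first 2 were over the level on every array and Col9a1 was under it on every array. Col22a1 (height 0.74 ± 0.07), Col16a1 (0.45 ± 0.11) and Col20a1 (0.39 ± 0.08) passed at the level used here, and Col19a1 (-0.67 ± 0.19) was under it. Col16a1 and Col20a1 missed the threshold when any 1 of the 3 arrays was left out, at limma adjusted p-values from 0.0606 to 0.162.

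Both multiplexins, large basement membrane collagens that carry sugar chains, were measured. Col18a1, the source of the fragment endostatin, had log2 signals of 8.48, 7.86 and 7.97 in replicates 2, 4 and 5 (height 1.76 ± 0.45, limma adjusted p = 0.000371). All arrays were at least 1 log2 unit over the level, and replicate 2 stood 0.56 above the mean of the other 2. Col15a1, its relative in vessel and muscle basement membranes, had 6.54, 6.35 and 6.94 (height 0.27 ± 0.21, adjusted p = 0.148). Col8a1, a short-chain collagen of vessel walls and of the cornea, had 7.96, 7.44 and 7.51 (height 1.30 ± 0.40, adjusted p = 0.00115), with replicate 2 at 0.48 above the mean of the others. The related Col8a2 (5.91 ± 0.09) and Col10a1 (5.90 ± 0.28) were under the level, and Col10a1 is known from growth plate cartilage.

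Of 4 transmembrane collagens 2 passed, against 37.3% of all genes. Col13a1, a membrane collagen of adhesion sites, had log2 signals of 7.09, 7.34 and 7.67 (height 1.03 ± 0.14, limma adjusted p = 0.00143), and Col23a1 had 7.13, 6.95 and 7.32 (height 0.79 ± 0.15, adjusted p = 0.00396). Every array was over the level for both. Col17a1, which holds skin cells to their basement membrane, stood at 6.36 ± 0.30, and Col25a1, known from brain, at 6.34 ± 0.16. Col7a1, the chain of anchoring fibrils in skin, had 7.06, 7.05 and 7.37 (height 0.82 ± 0.08, adjusted p = 0.00313). Col26a1 had 7.30, 7.31 and 7.65 (height 1.08 ± 0.08, adjusted p = 0.00109), while Col28a1 stood at 6.28 ± 0.31.

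The chains varied little between the samples, and by log2 signal most were strongest in replicate 5. No called chain differed by more than 1 log2 unit between its highest and lowest array, against 13.7% of all called genes and 11.8% of the 4928 genes called with a height under 2. The widest was Col9a3 (0.86), which exceeded 1 log2 unit after quantile normalization, and the narrowest Col1a1 (0.05). The median range was 0.35 over the called chains and 0.51 over all called genes. Replicate 5 gave the highest signal for 21 of the 25 called chains, replicate 2 for 3 and replicate 4 for 1. Among all called genes replicate 5 was highest for 20.8%, replicate 2 for 43.8% and replicate 4 for 35.4%. Among those with a height under 2, replicate 5 was highest for 25.4%. It was also highest for 57.2% of olfactory receptor genes and 77.3% of keratin-associated protein genes, and its background level was the highest of the 3. With the level subtracted, the highest array was replicate 2 for 12 chains, replicate 5 for 11 and replicate 4 for 2, against 62.1%, 7.65% and 30.3% of all called genes. What part the array's background had in the order or the small range of the chain signals was not tested.

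By log2 signal, Col18a1, Col8a1 and Col1a1 were the 3 called chains highest in replicate 2, and Col1a1 was 0.05 above the mean of the others. Several marker lists were high there too. The median difference of replicate 2 from the mean of the others was 0.80 for endothelial markers. It was 0.48 for mesangial, 0.36 for podocyte, 0.27 for mural and renin cell, 0.26 for proximal tubule and 0.10 for fibroblast markers. It was -0.10 for parietal epithelium, -0.19 for loop and distal tubule and -0.20 for macrophage markers. By height over the level, 12 of the 25 called chains were highest in replicate 2, against 62.1% of all called genes. Of 13 endothelial markers 11 had their highest signal in replicate 2, against 30.5% of all genes. The list's medians were 7.40, 6.87 and 6.75 in replicates 2, 4 and 5. Pecam1, an adhesion molecule of endothelium, had signals of 9.03, 6.87 and 6.79. The 3 called endothelial markers named by the rule were Emcn (9.22 ± 0.56), Ptprb (8.56 ± 1.44) and Egfl7 (7.62 ± 0.48). Without replicate 2, Col18a1 and Col8a1 still passed. The part of endothelial or other cells' RNA in their replicate 2 signals was not tested. For Col4a1 and Col4a2, which endothelium also makes, the log2 signal of replicate 2 differed from the mean of the others by 0.01 and -0.06. Their heights were largest in replicate 2, at 1.04, 0.95 and 0.68 for Col4a1 and 1.15, 1.02 and 1.00 for Col4a2 in replicates 2, 4 and 5.

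**Figure D3:**
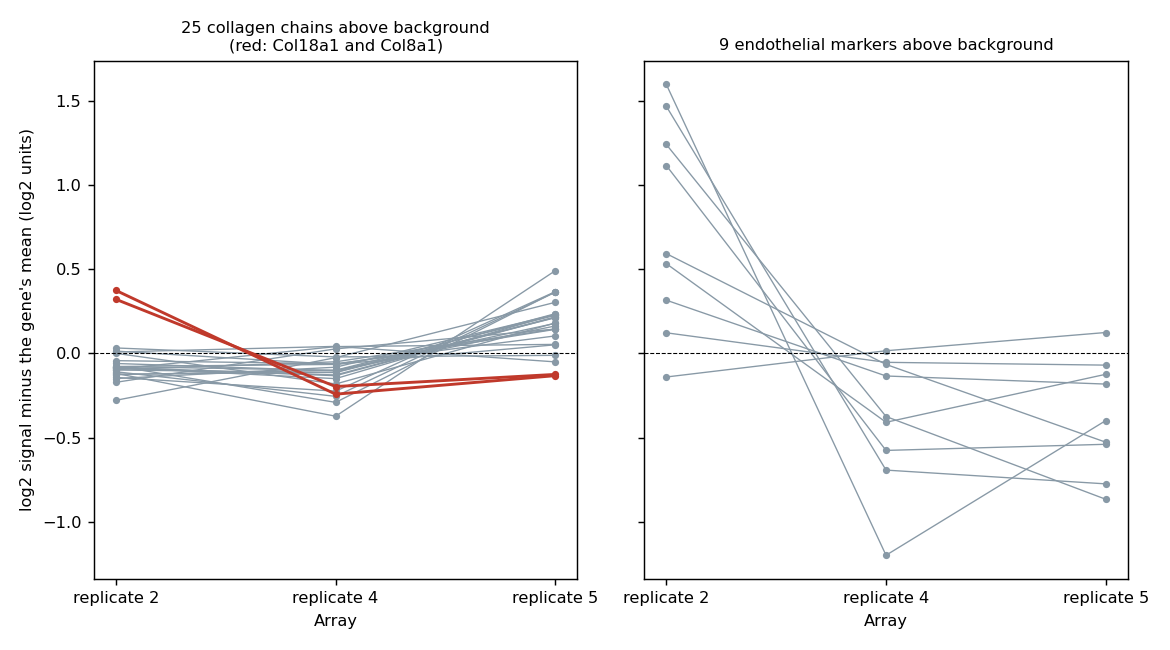
Log2 signal minus the gene's mean over the 3 arrays (y axis, log2 units) in replicates 2, 4 and 5 (x axis), with 1 line per gene. The left panel holds the 25 collagen chains above background, with Col18a1 and Col8a1 in red, and the right panel the 9 endothelial markers above background. Of the chains, 21 are highest in replicate 5, while Col18a1 and Col8a1 are highest in replicate 2 by log2 signal. So are 11 of the full list of 13 endothelial markers, which includes those not plotted, against 30.5% of all genes.

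Genes that fold and export collagen were above background nearly throughout. Over 7 lists of genes that make, bind or cut collagen, 49 of 92 measured genes (53.3%) passed, against 37.3% of all genes. In folding and export, 16 of 18 passed with a median height of 2.19. They included Sparc (12.31 ± 0.16), a secreted protein that binds collagen, the disulfide isomerase gene Pdia3 (11.52 ± 0.05), the chaperone gene Hspa5 (11.51 ± 0.09) and Ppib (10.53 ± 0.06), cyclophilin B. Creb3l1 (5.86 ± 0.21), a transcription factor of collagen-making cells, did not pass. Serpinh1, the chaperone that binds collagen in particular, had signals of 8.74, 8.52 and 8.89 (height 2.37). All 3 arrays of Serpinh1 were more than 2 log2 units over the level. Most of these chaperones serve other secreted proteins too.

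Hydroxylation and glycosylation of the chains, which fixes the helix and prepares cross-links, had 8 of 14 genes above background. That was 57.1%, against 37.3% of all genes. P3h2, a prolyl 3-hydroxylase that acts on type IV collagen, had log2 signals of 10.75, 11.36 and 9.83 (height 4.30), so its arrays differed by over 1 log2 unit. P4hb, the shared subunit of the prolyl 4-hydroxylases, stood at 10.46 ± 0.26, the lysyl hydroxylase gene Plod2 at 8.28 ± 0.54 and Crtap at 7.95 ± 0.69. Colgalt2 (5.34 ± 0.17) was under the level. Of 10 procollagen processing genes 5 passed, among them Mep1a (8.92 ± 0.56), a meprin that is also a brush border enzyme, Pcolce (8.71 ± 0.35), an enhancer of procollagen cutting, Furin (7.54 ± 0.03) and Bmp1 (6.95 ± 0.10), the C-propeptide protease. Mep1b (5.04 ± 0.17) did not pass. Without replicate 2 or 4 this count was 3.

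Cross-linking genes passed in 2 of 6 cases (33.3%, against 37.3% of all genes), Tgm2 (7.80 ± 0.39), a transglutaminase, and Loxl3 (6.91 ± 0.28), and Loxl4 (5.53 ± 0.12) was the lowest. Lox, lysyl oxidase itself, had signals of 6.24, 5.81 and 6.54 and did not pass. Without replicate 2 the count was 1. Matrix partners passed in 6 of 16 cases (37.5%), about the share of all genes, with the proteoglycan gene Bgn (biglycan) at 10.97 ± 0.64, Fn1 (fibronectin) at 9.93 ± 0.76, Thbs1 (thrombospondin) at 8.05 ± 0.42 and Nid1 (nidogen), which ties type IV collagen to laminin, at 7.75 ± 0.38. Bgn, Fn1 and Nid1 were each highest in replicate 2, with 11.70, 10.78 and 8.11. Lum was the lowest of that list.

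Receptors for collagen passed in 6 of 12 cases. Itgb1, the shared beta subunit of the collagen-binding integrins, had log2 signals of 11.50, 11.06 and 11.45 (height 4.99). Itga1, the alpha subunit that prefers type IV collagen, had 8.57, 8.52 and 8.66 (height 2.24). The other integrin genes of the list were Itga10, which passed (6.92 ± 0.21), and Itga2 (5.84 ± 0.24) and Itga11 (5.69 ± 0.13), which did not. Adgrg1, an adhesion receptor for type III collagen, stood at 8.52 ± 0.71, the receptor kinase gene Ddr2 at 7.50 ± 0.44, and Lair1, a receptor of blood cells, lowest at 5.33 ± 0.17. In collagen turnover 6 of 16 passed (37.5%), about the 37.3% of all genes. The protease inhibitors Timp3 and Timp2 stood at 12.38 ± 0.19 and 9.61 ± 0.92, the membrane-bound inhibitor gene Reck at 7.58 ± 0.60 and the collagenase gene Mmp14 at 7.38 ± 0.45, while Mmp1a (3.90 ± 0.13) was far under the level. Serpinh1, Lox, Itga10, Itga2, Itga11, Nphs1, Pdgfra, Dcn and Pecam1 were named for their roles after their values were seen. Ogn and Aspn were also named after their values were seen.

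**Figure D4:**
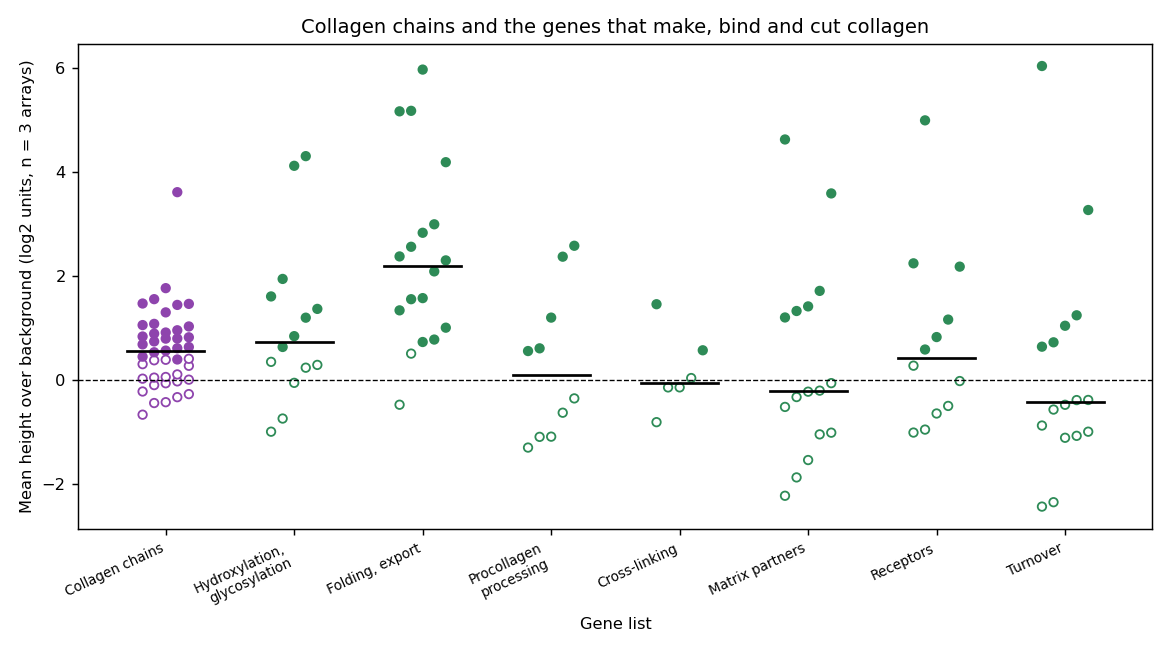
Mean height over the background level (y axis, log2 units, n = 3 arrays) for the 44 collagen chains and for the measured genes of 7 lists (x axis), with 1 point per gene, filled if above background. The black bar is the median of the list and the dashed line the background level. The chains lie in a narrow band with a median of 0.55, and the folding and export genes have a median of 2.19.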

How the data were processed

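RNA of 3 YFP-positive samples was measured on single-colour Affymetrix arrays after 1 round of NuGEN amplification, per the labels' protocols. The authors deposited log2 signals per probe set. The submitters' processing notes name Affymetrix Expression Console. The sources used here do not give its summary method, normalization or genome build. The log base was inferred from the values. The number of arrays limits the precision.

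Of 35557 probe sets, 21789 had 1 symbol in the platform's annotation, 1621 had several and were left out, and 12147 were unlisted. RefSeq matched 21698 by Entrez identifier and changed 0 symbols. A gene took its brightest probe set, leaving 19938 genes. Heights over the background level were fitted in limma 3.58.1 (R 4.3.3) by an intercept, with trended eBayes. The test was one-sided for a mean over 0 and adjusted by Benjamini-Hochberg across all genes. It was tested on simulated heights with independent noise for each gene and the background level taken as exact. There 88% of 50 genes planted at a height of 0.5 were called, and 0.09% of genes at or under the level. Errors shared by an array and the spread of background probes were not simulated. Other levels, probe set rules, variance models, quantile normalization and left-out arrays were tried. Python 3.11.15, pandas 2.3.3 and numpy 2.4.6 were used.

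The chains, lists and tests were chosen with earlier results of these data known. Every chain is accounted for. Up to 4 called genes of highest mean and the lowest are named of each pathway list, and up to 3 called genes of a marker list, with exceptions stated.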

Additional observations from a re-analysis of the deposited data

How the results depend on the processing

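Every called chain kept a mean over the level in each setting tried, except at the 99th percentile and keratin-associated protein levels. With the 99th percentile of olfactory receptor genes, 3303 genes, 4 chains and 23 pathway genes were above background. With the vomeronasal receptor level 13140 genes and 43 chains passed. With the keratin-associated protein level 709 genes, 0 chains and 9 pathway genes passed. At the 99th percentile level the heights of called chains that turned under the level were Col2a1 -0.23, Col3a1 -0.068, Col4a3 -0.26, Col6a1 -0.30, Col6a2 -0.029, Col6a3 -0.33, Col7a1 -0.044, Col11a2 -0.18, Col16a1 -0.42, Col20a1 -0.47, Col22a1 -0.12 and Col23a1 -0.07. At the keratin-associated protein level they were Col1a1 -0.88, Col1a2 -0.86, Col2a1 -1.69, Col3a1 -1.53, Col4a1 -1.44, Col4a2 -1.27, Col4a3 -1.72, Col4a4 -1.37, Col6a1 -1.76, Col6a2 -1.49, Col6a3 -1.80, Col7a1 -1.51, Col8a1 -1.03, Col9a2 -0.77, Col9a3 -0.86, Col11a2 -1.64, Col13a1 -1.30, Col16a1 -1.88, Col18a1 -0.56, Col20a1 -1.93, Col22a1 -1.59, Col23a1 -1.53, Col26a1 -1.25 and Col27a1 -1.42. The counts with 1 array left out ran from 6051 to 7806 for all genes and from 20 to 23 for the chains. Testing each probe set on its own gave 25 chains. The mean of a gene's probe sets, eBayes without a trend and quantile normalization gave 27 chains each, with Col4a5 and Col5a1 added. After quantile normalization 1 chain, Col9a3, had an array range above 1 log2 unit, against 0 otherwise. No paired analysis was possible because there is 1 group. The moderated test had 7.98 degrees of freedom as reported and 77.6 without replicate 4, and at the keratin-associated protein level limma's prior took all the weight, so a gene's own spread did not enter its p there. Signals near the level are limited by the spread of background probes, which the test's error does not cover.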
